A study of Homo sapiens with 36 samples.

Results

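The BCL2 family sets the threshold at which a cell commits to the mitochondrial route of apoptosis. Pro-survival members (BCL2, BCL2L1 and MCL1) hold the pore-forming effectors (BAX and BAK1) in check at the outer mitochondrial membrane. BH3-only members act upstream of both: BBC3 (PUMA), PMAIP1 (NOXA), BCL2L11 (BIM), BID and BAD bind pro-survival proteins, some also activate the effectors, and several are known targets of stress-response transcription factors. These 10 genes were taken from the authors' count table by their gene name, and make up 10 of its 36601 genes. All 10 passed the filter on low counts and were among the 14892 genes tested.

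The mRNA of the 10 genes was measured in 12 bulk RNA libraries of HEK293, an established line of human embryonic kidney origin that carries adenoviral early-region genes. The libraries came from a pair of cell clones numbered 4 and 5, both drawn from a tagged library, each given DMSO, the vehicle, or HyT36 at 25 µM, with 3 libraries per group. HyT36 is a hydrophobic ligand of HaloTag, a protein tag that binds its ligands covalently, and the study is about responses to misfolding of endogenous proteins. The other 24 of the 36 samples of the series were not analysed here. All 4 groups carry a tag, so none of them is an untagged control, and each genotype rests on 1 clone. The sources used here do not name the protein tagged in each clone, nor which of the stated exposures, 2 or 12 h, the bulk cultures had. The labels do not say that the 3 libraries of a group came from separate cultures, so the p-values reflect only how these libraries vary, which may be technical.

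Gene counts per library ran from 22853946 to 28635511. The HEK293 transcripts PAX2, LHX1, VIM and CDH2 were present in every library, PAX2 at 12.1 to 14.8 CPM (counts scaled to the library's size), whereas NEFL lay between 0 and 0.0423 CPM. A list of 16 epithelial carcinoma markers, none of them at 0 in all libraries, divided the libraries. Its summed level was 82.3 to 139 CPM in 6 libraries (all those of clone 5 with DMSO, replicates 2 and 3 of clone 4 with HyT36, and replicate 1 of clone 4 with DMSO) and 19.5 to 29.0 CPM in the other 6. This split crosses the treatment in clone 4 and coincides with it in clone 5. In clone 5 the marker transcripts and HyT36 therefore cannot be told apart, either by leaving libraries out or by a covariate. The spread of the markers within groups lies mostly in clone 4, so a covariate fit for clone 5 takes its slope mostly from there. Levels below are CPM scaled by TMM, edgeR's between-library scaling, and are compared between groups within a gene, never between genes. The counts are per gene and do not separate isoforms, which matters for MCL1, BCL2L1 and BCL2L11, whose isoforms are known to differ in function. In bulk RNA, fewer cells with a transcript and less of it per cell cannot be told apart.

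The promoters of PMAIP1 and BAK1 are shown because these 2 genes had the largest responses to HyT36 of the 10 in clone 4. The 250 bases before each annotated start are printed 5′ to 3′ on the gene's strand from RefSeq, build GRCh38.p14. They lie at chr18:59899746-59899995 (plus strand) for PMAIP1 and chr6:33580277-33580526 (minus strand) for BAK1. Capitals mark TGACG on either strand, the core of the ATF and CREB motif, in PMAIP1 and CCAAT, the CCAAT box, on either strand in BAK1.
PMAIP1: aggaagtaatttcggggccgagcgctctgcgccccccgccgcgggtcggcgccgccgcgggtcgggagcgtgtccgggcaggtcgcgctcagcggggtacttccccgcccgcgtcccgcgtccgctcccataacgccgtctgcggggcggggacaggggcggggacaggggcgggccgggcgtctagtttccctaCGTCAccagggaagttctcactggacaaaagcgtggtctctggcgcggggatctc
BAK1: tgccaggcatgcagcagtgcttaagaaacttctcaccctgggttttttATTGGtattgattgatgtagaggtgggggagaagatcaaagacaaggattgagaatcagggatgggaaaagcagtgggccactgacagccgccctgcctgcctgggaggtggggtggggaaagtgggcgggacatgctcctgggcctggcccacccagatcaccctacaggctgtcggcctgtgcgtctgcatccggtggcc

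RefSeq promoter windows of 300 bases (250 before to 50 after the start) were at hand for 9 of the 10 genes, 15 windows in all, the exception being MCL1. Windows of the same gene can overlap. Those of BAD hold the same TGACG and the same CCAAT, each counted in both windows. The TGACG of PMAIP1 stood at position -55 from the start, on the minus strand of the gene. TGACG occurred in 6 of the 15 family windows and in 24.6% of the 35116 windows of all genes, searched on both strands. The CCAAT box in the printed BAK1 stretch stood at position -202, on the minus strand of the gene, and the window held another at 28 after the start. CCAAT occurred in 6 of the 15 family windows and in 34.6% of all windows. The window of BCL2L11 held a FOXO site, GTAAACA, at position -223, a motif present in 3.42% of all windows, and the BAX window held TGACG at position -134, overlapping the E-box CACGTG at -138. The composite core TGATGNAA of ATF4 and CHOP was found in 0 of the 15 windows and in 3.62% of all windows. The motifs were chosen after expression values had been seen, and a match says only that these letters occur in the window.

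HyT36 changed few of the 10 genes, and by modest amounts. BAK1 mRNA fell in both clones, by 0.38 ± 0.05 (SE) on the log2 scale in clone 4 and by 0.34 ± 0.05 in clone 5. PMAIP1 mRNA rose in clone 4 alone, from 36.7 to 46.0 CPM on average, and its response differed between the clones by a test of that difference. MCL1 fell in clone 5 and BCL2L1 in clone 4, and neither of these responses was shown to differ between the clones. Of the BH3-only genes other than PMAIP1, none passed the test in either clone.

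In clone 4, 3 of the 10 genes passed edgeR's quasi-likelihood test at an adjusted p under 0.05 over all genes tested, 1 higher and 2 lower, against 5.57% of all genes called (2.21% higher, 3.36% lower). In clone 5, 2 of the 10 passed, both lower, against 8.19% of all genes (3.35% higher, 4.83% lower). With both clones averaged, 3 of the 10 passed, all of them lower, against 14.7% of all genes (6.65% higher, 8.03% lower). The groups did not overlap for 6 of the 10 genes in clone 4 and for 3 of the 10 in clone 5, where 23.5% and 25.1% of all genes did not overlap. The median log2 fold change of the 10 genes was -0.05 in clone 4 and -0.06 in clone 5, beside 0.00 and -0.00 over all genes. Their median size of change, regardless of sign, was 0.10 in clone 4 and 0.09 in clone 5, against 0.09 and 0.10 over all genes. The 2 responses use separate DMSO libraries, 1 set per clone.

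**Figure D1:**
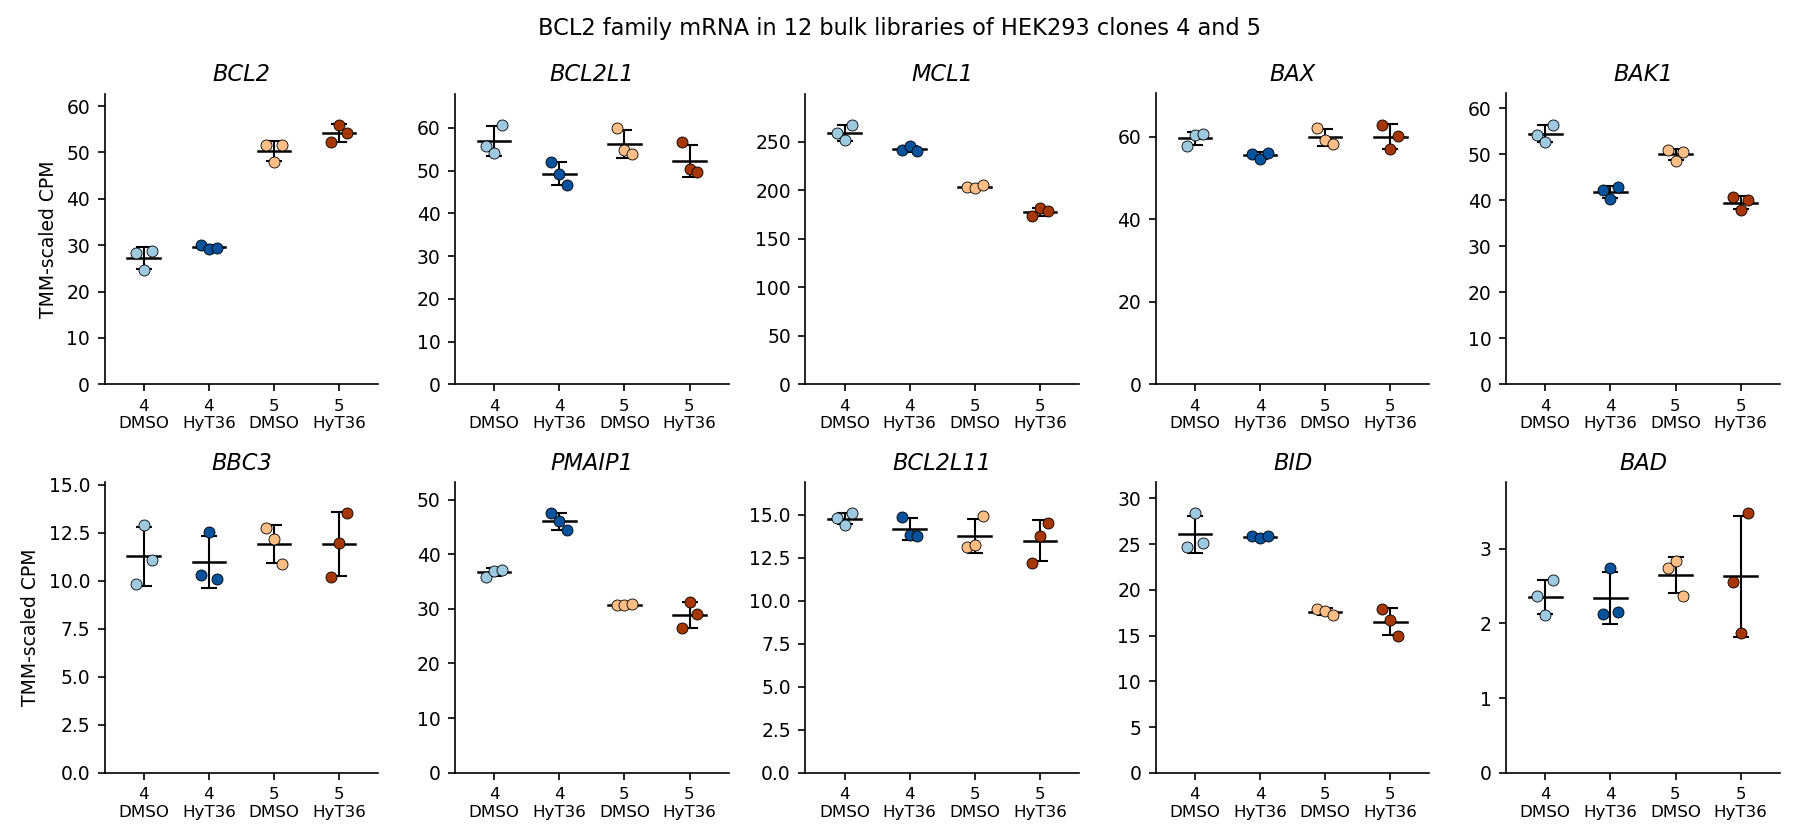
TMM-scaled CPM of the 10 BCL2 family genes (vertical axes, each from 0) in the 12 libraries, by clone and treatment. Points are libraries, horizontal lines group means and bars the SD of 3 libraries. BAK1 points with HyT36 lie below the DMSO points of the same clone, PMAIP1 stands highest in clone 4 with HyT36, and BCL2 is higher in clone 5 than in clone 4.

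Among the effectors, BAK1 (chromosome 6, 33572552 to 33580276, GRCh38.p14) encodes a pore-forming protein that resides in the outer mitochondrial membrane. The DMSO libraries of clone 4 gave 54.3, 52.7 and 56.4 CPM, and its HyT36 libraries 42.2, 40.3 and 42.9 CPM. All 3 HyT36 libraries lay below all 3 DMSO libraries. The mean fell from 54.5 ± 1.88 to 41.8 ± 1.35 CPM (SD, n = 3), a fold change of 0.768 with an edgeR adjusted p of 1.9e-06.

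BAK1 stood at 50.8, 48.6 and 50.6 CPM in the clone 5 DMSO libraries and at 40.7, 37.8 and 40.0 CPM after HyT36, again without overlap. The fold change was 0.791, with an edgeR adjusted p of 2.4e-05. The responses of the 2 clones differed by 0.04 ± 0.07 on the log2 scale, with an edgeR adjusted p of 0.94. Averaged over the clones, BAK1 had the smallest p of the family, with a log2 fold change of -0.36 ± 0.04 and an edgeR adjusted p of 1.5e-09. A change at least as large was seen in 8.19% of all genes tested. With the summed epithelial markers as a covariate the log2 change was -0.38 in clone 4 and -0.35 in clone 5. For clone 5 that fit cannot separate the markers from HyT36. Within clone 4 the log2 change was -0.37 among the libraries with few epithelial transcripts (2 DMSO, 1 HyT36). It was -0.38 among those with many (1 DMSO, 2 HyT36). Each of these values has an arm of 1 library, which the fit assumes to vary like the other groups, and they are given as a description.

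BAX (chromosome 19, 48954875 to 48961798) encodes the effector that is largely cytosolic until it is activated. Clone 4 gave 57.9, 60.3 and 60.7 CPM in its DMSO libraries and 55.9, 54.5 and 56.0 CPM in its HyT36 libraries. These 2 groups did not overlap, yet the log2 difference of -0.10 ± 0.05 did not pass (edgeR adjusted p = 0.24). BAX averaged 59.9 ± 2.04 CPM for clone 5 on DMSO and 60.1 ± 2.94 CPM on HyT36, with overlapping libraries and an edgeR adjusted p of 0.97. The test of the difference between the clones' BAX responses gave 0.11 on the log2 scale and an edgeR adjusted p of 0.72.

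The BH3-only gene PMAIP1 (chromosome 18, 59899996 to 59904305) encodes NOXA, which binds MCL1 selectively and promotes its degradation. Clone 4 libraries held 35.8, 37.0 and 37.2 CPM on DMSO and 47.5, 46.0 and 44.4 CPM on HyT36, with every HyT36 library above every DMSO library. The log2 fold change was 0.33 ± 0.06, with an edgeR adjusted p of 2.1e-04, and 13.6% of all genes changed at least as much in clone 4.

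Clone 5 libraries held 30.7, 30.6 and 30.9 CPM of PMAIP1 on DMSO and 26.4, 31.3 and 29.0 CPM on HyT36. The highest HyT36 library lay above all DMSO libraries and the other 2 below them, and the difference of -0.09 ± 0.06 did not pass (edgeR adjusted p = 0.47). The change in clone 5 minus that in clone 4 was -0.42 ± 0.09 on the log2 scale, with an edgeR adjusted p of 0.013. PMAIP1 was the only one of the 10 genes called in this test, which called 0.302% of all genes. That call was lost without clone 4 HyT36 replicate 1 (-0.39, edgeR adjusted p = 0.052) and without clone 5 HyT36 replicate 1 (-0.35, edgeR adjusted p = 0.074). The difference contains the clone 5 response, in which the epithelial markers coincide with HyT36. With the epithelial covariate the PMAIP1 change in clone 4 was 0.34 on the log2 scale. Among the clone 4 libraries with few epithelial transcripts it was 0.36 and among those with many 0.34, each with an arm of 1 library and given as a description.

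The 4 remaining BH3-only genes were called in neither clone. BBC3 (chromosome 19, 47220824 to 47232860), which encodes PUMA, a potent binder of all pro-survival members, ranged from 9.85 to 12.9 CPM for clone 4 on DMSO and from 10.1 to 12.5 CPM on HyT36. For clone 5 its range was 10.9 to 12.7 CPM on DMSO and 10.2 to 13.5 CPM on HyT36. Its log2 fold changes were -0.04 ± 0.11 in clone 4 and -0.00 ± 0.11 in clone 5, and the groups overlapped in both.

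BCL2L11 (chromosome 2, 111120914 to 111168445) encodes BIM, which also binds all pro-survival members. Its mean was 14.8 ± 0.336 CPM on DMSO and 14.2 ± 0.625 CPM on HyT36 for clone 4, and 13.8 ± 0.995 and 13.5 ± 1.19 CPM in clone 5. The log2 fold changes of -0.06 ± 0.08 and -0.03 ± 0.08 lay within their errors.

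BID (chromosome 22, 17734138 to 17774665) is cut by caspase 8 and so links death receptors to mitochondria. BID averaged 26.1 ± 2.01 and 25.8 ± 0.135 CPM in clone 4 with DMSO and HyT36, and 17.6 ± 0.348 and 16.5 ± 1.46 CPM in clone 5. Neither difference passed, with edgeR adjusted p values of 0.94 and 0.56. BAD (chromosome 11, 64269828 to 64284704), which is held inactive by phosphorylation, had the fewest reads, 43 to 82 per library. Its SE was 0.21 on the log2 scale in clone 4 and 0.20 in clone 5, so changes of the size seen for PMAIP1 or BAK1 were not detectable for BAD at this depth. BAD overlaps GPR137 in the annotation, and the sources used here do not state the strand setting of the counting.

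Of the pro-survival genes, MCL1 (chromosome 1, 150574558 to 150579610) encodes a rapidly degraded protein that is the main partner of NOXA. The DMSO libraries of clone 5 gave 203, 203 and 205 CPM, and its HyT36 libraries 173, 181 and 178 CPM. The groups did not overlap, and the fold change of 0.872 had an edgeR adjusted p of 2.9e-04. With the epithelial markers as a covariate the MCL1 change in clone 5 was -0.20 on the log2 scale (edgeR adjusted p = 0.0028). The markers coincide with treatment in this clone, so that fit cannot separate them from HyT36.

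The DMSO libraries of clone 4 gave MCL1 levels of 259, 252 and 268 CPM, and its HyT36 libraries 242, 245 and 240.1 CPM. These groups did not overlap either, but the log2 difference of -0.10 ± 0.04 did not pass (edgeR adjusted p = 0.12). With library totals in place of TMM scaling, that difference was -0.12 and passed (edgeR adjusted p = 0.024). The MCL1 responses were not shown to differ between clones (-0.10 ± 0.05, edgeR adjusted p = 0.64). With the clones averaged the fall was 0.15 ± 0.03 on the log2 scale, with an edgeR adjusted p of 5.6e-05.

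BCL2L1 (chromosome 20, 31664452 to 31723963) encodes BCL-XL and, by alternative splicing, the pro-apoptotic BCL-XS. Clone 4 libraries held 55.8, 54.2 and 60.8 CPM on DMSO and 52.1, 49.1 and 46.7 CPM on HyT36. The 3 HyT36 libraries were the lowest, and the log2 fold change of -0.21 ± 0.06 passed (edgeR adjusted p = 0.025). The BCL2L1 call in clone 4 was lost without DMSO replicate 3 (edgeR adjusted p = 0.19), HyT36 replicate 2 (0.090) or HyT36 replicate 3 (0.20), and its log2 change was -0.14 among the libraries with few epithelial transcripts and -0.22 among those with many, each with an arm of 1 library. BCL2L1 averaged 56.2 ± 3.27 CPM for clone 5 on DMSO and 52.2 ± 3.83 CPM on HyT36, with overlap, and did not pass. Averaged over the clones the log2 fold change was -0.16 ± 0.04, with an edgeR adjusted p of 0.0065. BCL2L1 overlaps the antisense gene BCL2L1-AS1, whose reads cannot be told apart from its own without strand.

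BCL2 (chromosome 18, 63123346 to 63320090), the founding pro-survival gene, did not pass in either clone. The clone 4 libraries were at 28.4, 24.5 and 28.7 CPM on DMSO and at 30.1, 29.1 and 29.3 CPM on HyT36. All 3 HyT36 libraries were above the DMSO libraries, by 0.12 ± 0.06 on the log2 scale (adjusted p from edgeR = 0.30). Those of clone 5 were at 51.6, 47.8 and 51.7 CPM on DMSO and at 52.2, 56.0 and 54.2 CPM on HyT36, a log2 difference of 0.10 ± 0.06 (edgeR adjusted p = 0.31). BCL2 was thus listed higher in 6 of 6 HyT36 libraries than in any DMSO library of the same clone, with an average log2 change of 0.11 ± 0.04 that did not pass (edgeR adjusted p = 0.070).

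**Figure D2:**
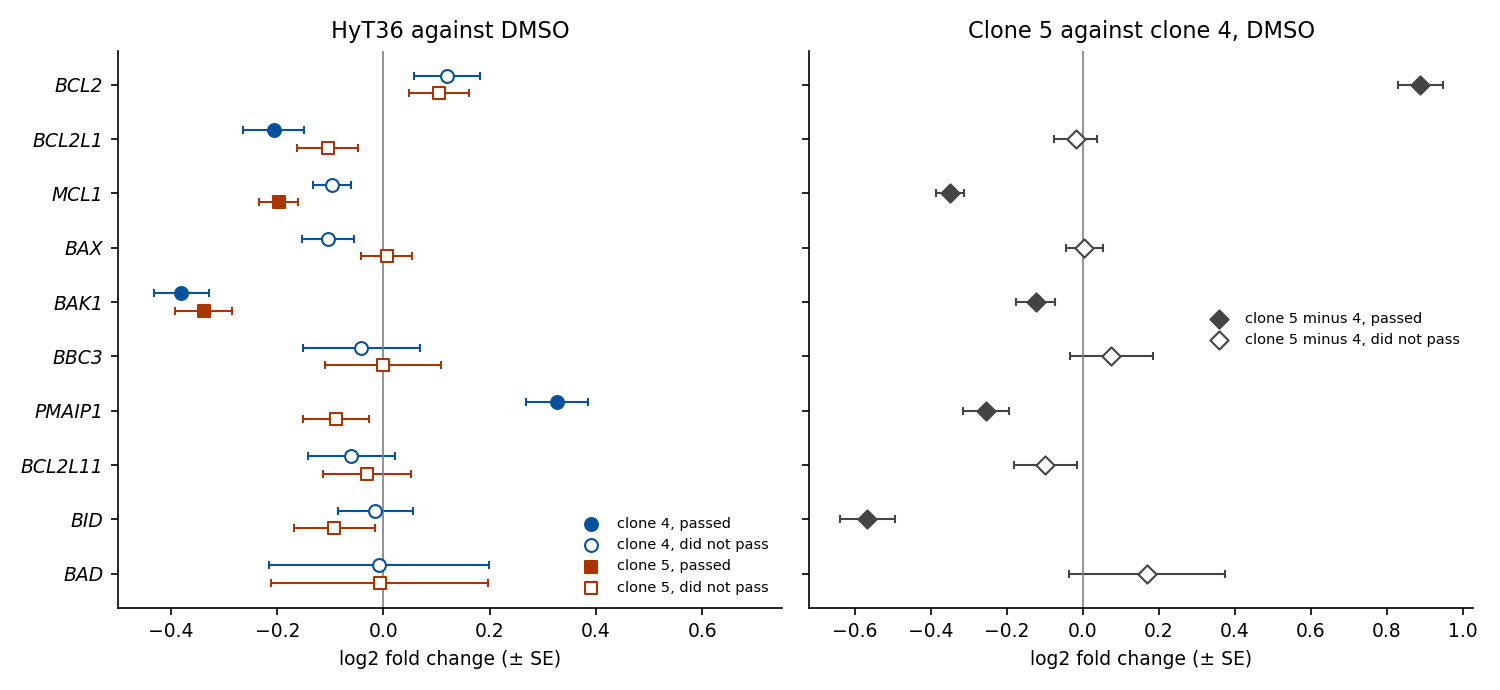
Fitted log2 fold changes of the 10 genes (horizontal axes) with SE bars: HyT36 against DMSO in clone 4 (circles) and clone 5 (squares) at left, clone 5 against clone 4 with DMSO at right. Filled symbols passed an edgeR adjusted p of 0.05. BAK1 is filled on the negative side in both clones, PMAIP1 is filled on the positive side in clone 4 alone, and the largest change of the right panel is BCL2 at 0.89.

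The baseline of the family was not the same in the 2 clones. With DMSO, BCL2 was 1.85 times as high in clone 5 as in clone 4, while BID, MCL1, PMAIP1 and BAK1 were lower. Thus 5 of the 10 genes passed, 1 higher and 4 lower, but 55.5% of all genes passed in this comparison (27.3% higher, 28.2% lower), and the groups did not overlap for 59.8% of all genes against 5 of the 10. The median size of the difference was 0.15 for the family and 0.25 for all genes on the log2 scale. The number of calls is therefore near the background and is no result about the family.

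The BCL2 libraries with DMSO lay between 24.5 and 28.7 CPM in clone 4 and between 47.8 and 51.7 CPM in clone 5, a log2 difference of 0.89 ± 0.06 with an edgeR adjusted p of 2.8e-16. A difference at least as large was seen for 16.3% of all genes. BID averaged 26.1 CPM in clone 4 and 17.6 CPM in clone 5, and the log2 difference of -0.57 ± 0.07 had an edgeR adjusted p of 1.4e-08. The BID libraries did not overlap, the lowest of clone 4 standing at 24.7 CPM and the highest of clone 5 at 17.9 CPM.

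MCL1 averaged 259 ± 8.06 CPM in clone 4 and 204 ± 1.26 CPM in clone 5, a log2 difference of -0.35 ± 0.04 with an edgeR adjusted p of 7.5e-11. PMAIP1 averaged 36.7 ± 0.736 and 30.7 ± 0.137 CPM, a log2 difference of -0.25 ± 0.06 with an edgeR adjusted p of 4.4e-04. Both genes were lower in all 3 clone 5 libraries than in any clone 4 library.

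The BAK1 difference between the clones, -0.12 ± 0.05 with an edgeR adjusted p of 0.039, did not hold. It was lost with library totals (0.18), without the filter (0.087) and with the epithelial covariate (0.089), all as edgeR adjusted p. It was also lost without clone 4 DMSO replicate 1 or 3, clone 4 HyT36 replicate 3, or any 1 of the clone 5 DMSO libraries, with edgeR adjusted p values from 0.0504 to 0.18. BBC3, BCL2L11, BCL2L1, BAX and BAD did not pass between the clones, BAX with a log2 difference of 0.00 and BCL2L1 with -0.02.

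Read ratios within a library do not depend on scaling between libraries, and were used to follow pairs of family genes. The products of a pair are known to bind each other, except for MCL1 and BCL2L1, which are both pro-survival genes. The ratios are given as values with no test. Since transcript lengths were not used, changes between groups can be read from the ratios and stoichiometry cannot. PMAIP1 gave 14.1 ± 0.480 reads per 100 MCL1 reads for clone 4 on DMSO and 19.0 ± 0.584 on HyT36 (SD, n = 3), without overlap. For clone 5 the same ratio was 15.1 ± 0.0252 on DMSO and 16.3 ± 0.980 on HyT36. BCL2L11 per 100 MCL1 reads averaged 5.70 with DMSO and 5.84 with HyT36 in clone 4, and 6.77 and 7.60 in clone 5.

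BAX gave 220.4 ± 22.3 reads per 100 BCL2 reads in clone 4 with DMSO and 188 ± 2.86 with HyT36. In clone 5 the ratio was 119 ± 5.56 with DMSO and 111 ± 9.40 with HyT36, below every clone 4 library. BBC3 per 100 BCL2L1 reads averaged 19.9, 22.3, 21.2 and 23.0 in clone 4 DMSO, clone 4 HyT36, clone 5 DMSO and clone 5 HyT36, and the libraries of the 4 groups overlapped. MCL1 per 100 BCL2L1 reads averaged 456 and 493 in clone 4 with DMSO and HyT36, and 363 and 342 in clone 5.

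**Figure D3:**
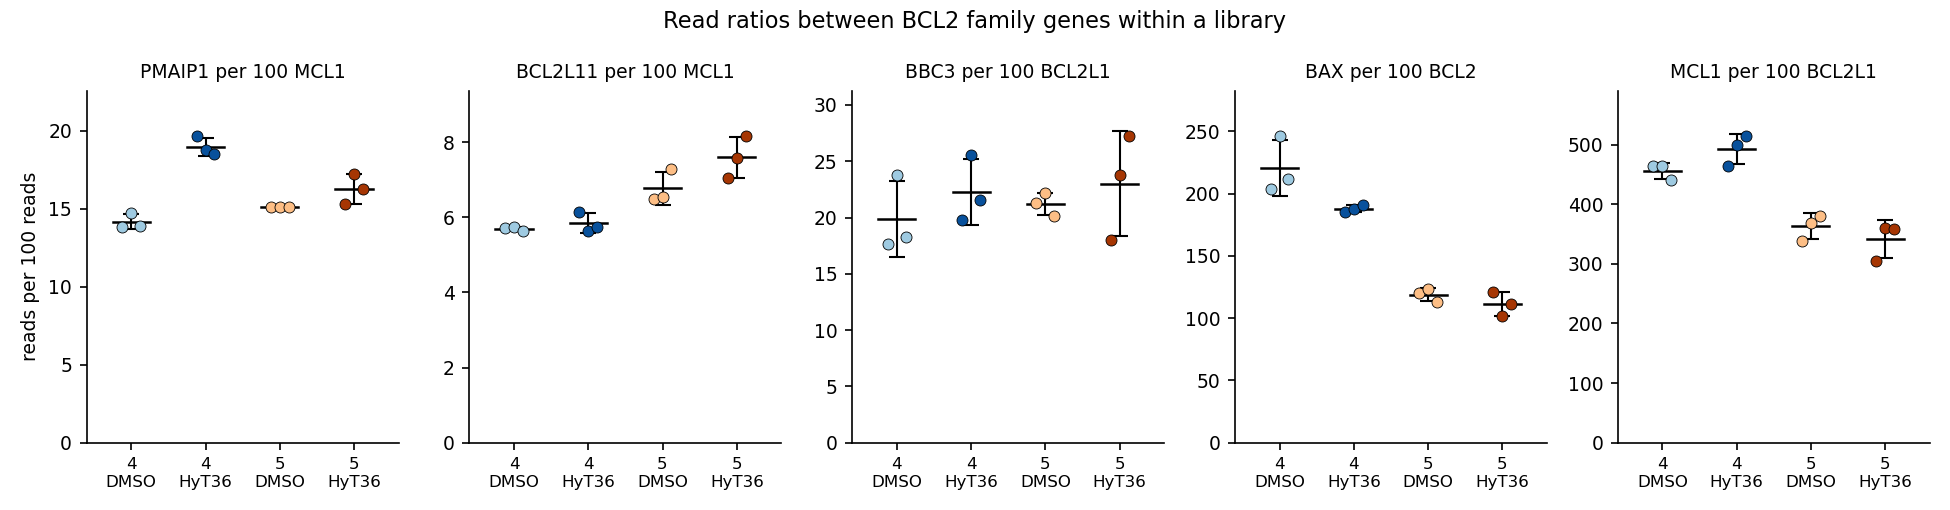
Reads of 1 gene per 100 reads of another in the same library (vertical axes, each from 0) for 5 pairs, by clone and treatment, with group means and SD of 3 libraries. PMAIP1 per 100 MCL1 is highest in clone 4 with HyT36 at 19.0, and BAX per 100 BCL2 is lower in clone 5 than in clone 4.

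The level of BAK1 over the 12 libraries was followed most closely by ISG20L2 and TMEM159 (Pearson r of log2 CPM 0.97 each), then KPNA4 (0.96), EPOP and DLX1 (0.95 each), among 11519 genes whose log2 CPM averaged 1 or more. This is a description over libraries that share groups and depth. ISG20L2, for example, averaged 97.1 and 78.3 CPM for clone 4 on DMSO and HyT36, and 91.7 and 77.2 CPM in clone 5.

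Around the 10 genes, the death receptor genes called with HyT36 were all lower, but those called were not all the same in the clones. Of the 13 listed genes 11 were tested, and 4 were called in clone 4 and 4 in clone 5, all lower. The median log2 change was -0.17 and -0.18, beside 0.00 and -0.00 over all genes. Of all genes, 3.36% were called lower in clone 4 and 4.83% in clone 5. When any single library was left out, 3 of the 4 calls held in clone 4 and 4 of 4 in clone 5. TNFRSF10D, a decoy receptor for TRAIL, was at 45.5, 49.4 and 42.2 CPM in DMSO libraries of clone 4 and at 28.9, 28.9 and 26.7 CPM in HyT36 libraries, and went from 16.5, 17.9 and 18.4 to 6.74, 7.29 and 6.24 CPM in clone 5. The groups did not overlap in either clone, and the log2 changes were -0.70 ± 0.07 (edgeR adjusted p = 8.7e-10) and -1.39 ± 0.09 (edgeR adjusted p = 3.1e-15). TNFRSF10B, the signalling TRAIL receptor DR5 and a known target of CHOP, fell by 0.26 ± 0.04 in clone 4 and by 0.32 ± 0.04 in clone 5 on the log2 scale. FAS fell in clone 5, by 0.78 ± 0.16 (edgeR adjusted p = 0.0012), and RIPK1 fell there by 0.32 ± 0.05. FAS did not pass in clone 4 (edgeR adjusted p = 0.27). BID, the member that joins this pathway to the mitochondria, was not called in either response.

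Among other BCL2 homologues and BH3-only genes, 12 of 15 were tested and 0 were called by edgeR in either clone, with 2 at an unadjusted p under 0.05 in clone 4 and 3 in clone 5. The share of all genes called was 5.57% in clone 4 and 8.19% in clone 5. The median log2 change of the list was 0.04 in each clone. Between the clones, 3 of the 12 were called, where 55.5% of all genes were, so the count is no result about the list. BOK, a BCL2 relative with effector-like structure, had 151 to 184 reads in clone 4 DMSO libraries and 18 to 29 in those of clone 5. Its log2 difference of -2.93 ± 0.19 had an edgeR adjusted p of 7.5e-17, and its level with HyT36 was not shown to change in either clone. BNIP3L, which encodes a mitophagy receptor, was lower in clone 5 by a log2 difference of -0.41 ± 0.06.

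Downstream of the family, 21 of 21 caspase, apoptosome and IAP genes were tested. In clone 4, 0 were called by edgeR, with 3 at an unadjusted p under 0.05, and the median log2 change was -0.03. In clone 5 it was -0.01, and 2 were called, and both calls were lost on leaving out single libraries, so they are counted here without names. The share of all genes called was 5.57% in clone 4 and 8.19% in clone 5. Between the clones 10 of the 21 were called, 8 higher and 2 lower in clone 5, where 55.5% of all genes were called (27.3% higher, 28.2% lower), so this count too is no result about the list. XIAP, the caspase inhibitor, was higher by 0.90 ± 0.05 on the log2 scale (85.8 ± 0.880 against 45.9 ± 3.28 CPM), and AIFM1, a mitochondrial flavoprotein released in cell death, by 0.77 ± 0.04.

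Of 17 tested transcriptional regulators of the family, 5 were called in clone 4 (3 higher, 2 lower) and 6 in clone 5 (4 higher, 2 lower), with a median log2 change of 0.10 and 0.03. Of these calls, 3 in clone 4 and 2 in clone 5 held when any single library was left out. The share of all genes called was 5.57% in clone 4 and 8.19% in clone 5. ATF3, a stress-induced factor, rose by 0.77 ± 0.08 in clone 4 and by 0.67 ± 0.08 in clone 5 on the log2 scale. MYC fell in clone 4 by 0.24 ± 0.04 (edgeR adjusted p = 1.9e-04). That call held when any single library was left out and was lost in 1 other alternative. The other falls called in this list were lost on leaving out single libraries. DDIT3, which encodes CHOP and is known to regulate BH3-only genes and BCL2, rose in clone 4 by 1.72 ± 0.22 (edgeR adjusted p = 1.1e-06), from a mean of 1.42 CPM to one of 4.71 ± 1.32 CPM (SD, n = 3).

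In clone 5 DDIT3 rose by 0.88 ± 0.23 (edgeR adjusted p = 0.012). That call was lost without DMSO replicate 1 (0.061) or DMSO replicate 3 (0.052), and with the epithelial covariate (0.25), as edgeR adjusted p. In clone 5 the markers coincide with treatment, so the covariate fit cannot separate them from HyT36. FOXO3, a regulator of BCL2L11 and BBC3, rose in clone 5 by 0.26 ± 0.06 while those 2 members did not pass. CHAC1, a target of ATF4 and CHOP, rose by 3.82 ± 0.09 in clone 4 and by 2.86 ± 0.13 in clone 5. CDKN1A, an inhibitor of the cell cycle, fell by 0.96 ± 0.16 in clone 5 (edgeR adjusted p = 0.0061). In clone 4 it fell by 0.88 ± 0.15 (edgeR adjusted p = 0.0086), a call lost without HyT36 replicate 3 (edgeR adjusted p = 0.055) and when clone 4 was fitted alone (0.081).

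Of 21 genes whose products modify or chaperone family proteins, 3 were called in clone 4 (2 higher, 1 lower) and 4 in clone 5 (all higher), of which 1 and 2 held when any single library was left out. The share of all genes called was 5.57% in clone 4 and 8.19% in clone 5. The median log2 change of the list was 0.03 in each clone. HSPA1A, an inducible HSP70 gene nearly identical to HSPA1B so that reads may be split between them, rose by 0.64 ± 0.05 and 0.37 ± 0.06 on the log2 scale in clones 4 and 5. HUWE1, a ubiquitin ligase of MCL1, averaged 285 ± 15.0 CPM for clone 4 on DMSO and 285 ± 15.7 CPM on HyT36. In clone 5 HUWE1 rose from 388 ± 15.5 to 462 ± 3.67 CPM, a log2 change of 0.25 ± 0.04 (edgeR adjusted p = 4.7e-05). USP9X, a deubiquitinase of MCL1, was higher in clone 5 than in clone 4 with DMSO by 0.72 ± 0.04 on the log2 scale.

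**Figure D4:**
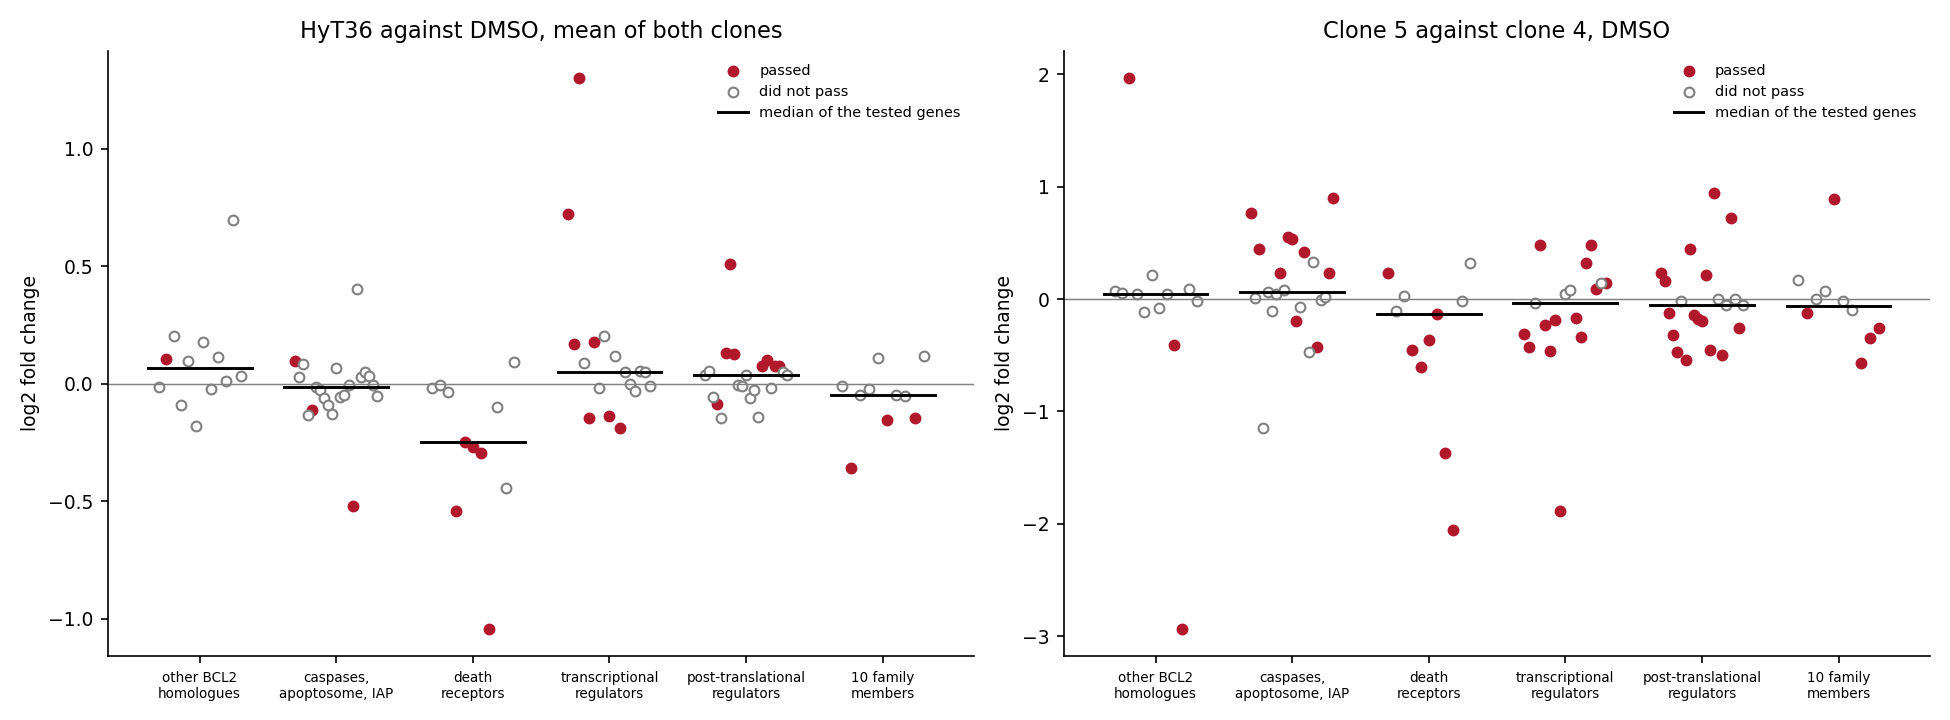
Log2 fold changes (vertical axes) of the tested genes of 5 lists around the family and of the 10 family genes, for HyT36 against DMSO averaged over the clones (left) and clone 5 against clone 4 with DMSO (right). Red points passed an edgeR adjusted p of 0.05, and black lines are list medians. At left the called death receptor genes all lie below 0, and 3 of the 10 family genes are called, all lower.

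The calls of BAK1 and PMAIP1 in clone 4 and of BAK1 and MCL1 in clone 5 held under each alternative processing run: 22 alternatives for clone 4, which include the 2 epithelial splits with arms of 1 library, and 20 for clone 5. Both totals include fits that leave out only a library of the other clone. Those fits keep every library of the response and change little beyond the shared estimate of the spread. In clone 5 the covariate fit cannot separate the markers from HyT36. The calls of BCL2, MCL1, BID and PMAIP1 between the clones held in every alternative with more than 1 library per group. The epithelial split leans with clone in this comparison. Every clone 5 DMSO library, but only replicate 1 of clone 4 DMSO, had many of these transcripts. Fits without a HyT36 library leave the DMSO libraries of this comparison in place.

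**Figure D5:**
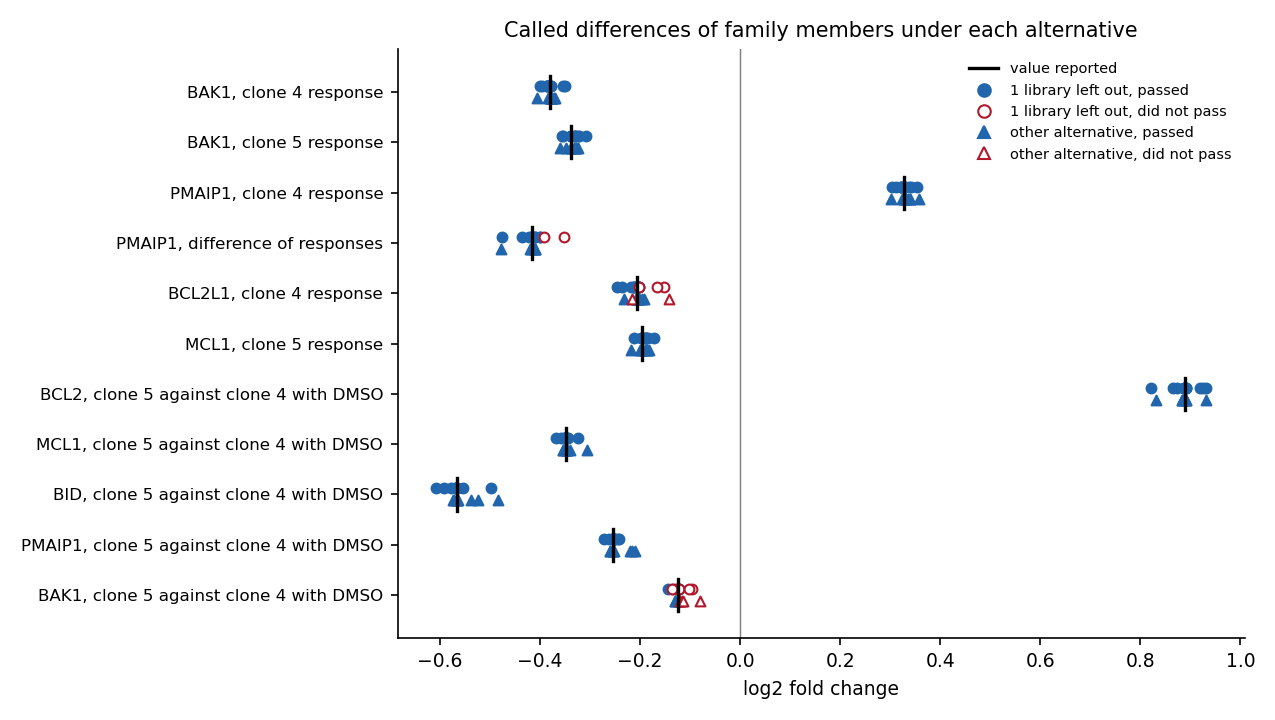
Log2 fold changes (horizontal axis) of the family genes called in a comparison (rows). Black lines are the reported values, circles fits with 1 library left out and triangles other alternatives, filled where an adjusted p under 0.05 was kept. Every BAK1 value lies below 0 in both clones, and every PMAIP1 value in clone 4 lies above 0.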

How the data were processed

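Bulk polyA-selected RNA was sequenced, and the authors deposited whole-number read counts without normalization in a single table, per the file headers: 36601 genes, 4 summary entries and 22344 guide features. The submitters' processing notes name GRCh38 and Cell Ranger 7. The aligner, counter and strand setting behind the bulk table were not given in the sources used here. Guide features and summary entries were left out, and gene counts made up 82.4 to 83.9% of each library. Counts were fitted with edgeR 4.0.16 in R 4.3.3 (TMM scaling, filterByExpr by group, robust quasi-likelihood fit, prior count 0.125) on all 12 libraries with 4 group means. P-values were adjusted by Benjamini-Hochberg over 14892 genes, with a threshold of 0.05. SEs were derived from the F statistic. The fit was tested on simulated data. Replicate libraries of a group differed by more than counting noise (chi-square per degree of freedom 1.95 to 8.71), so none was counted as a duplicate.

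The 10 members and the 5 surrounding gene lists were chosen with earlier results of these data known. Named were all members, the 3 genes with the smallest p per list and comparison, a few stress genes and the 5 genes most correlated with BAK1; 1 gene of that rule is not reported here. List genes whose call ended on leaving out a single library were mostly counted without being named. Alternatives were RLE scaling, library totals, DESeq2 1.42.0, limma-voom (limma 3.58.1), no filter, each clone alone, the replicate block, epithelial markers as a covariate or split, and leaving out each library.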

Additional observations from a re-analysis of the deposited data

Results flagged for a closer look

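The response to HyT36 differed between the clones, by the test of the difference itself, for 1 of the 10 family genes. It also differed for the stress gene CHAC1 and for 3 genes of the lists around the family. These were 1 of 11 tested death receptor genes and 2 of 21 genes whose products modify or chaperone family proteins. The other lists, with 12, 21 and 17 tested genes, had 0 called. The same test called 0.302% of all genes. For PMAIP1 the clone 5 change minus the clone 4 change was -0.42 ± 0.09 on the log2 scale (edgeR adjusted p = 0.013), with a rise in clone 4 and no call in clone 5. For TNFRSF10D, the TRAIL decoy receptor, it was -0.69 ± 0.11 (edgeR adjusted p = 7.0e-04), the fall being larger in clone 5. For HUWE1, a ubiquitin ligase of MCL1, it was 0.25 ± 0.06 (edgeR adjusted p = 0.041). The HUWE1 call was lost without clone 4 DMSO replicate 2 or 3, clone 4 HyT36 replicate 1 or 2, clone 5 DMSO replicate 1, or any 1 of the clone 5 HyT36 libraries, with log2 differences of 0.21 to 0.26. For PIM1, a kinase that phosphorylates BAD, it was 0.38 ± 0.08 (edgeR adjusted p = 0.027). The PIM1 call was lost with the epithelial covariate (0.30), and without clone 4 DMSO replicate 2, clone 4 HyT36 replicate 1 or 2, clone 5 DMSO replicate 3, or any 1 of the clone 5 HyT36 libraries, with log2 differences of 0.33 to 0.39. The PMAIP1 difference was -0.39 without clone 4 HyT36 replicate 1 and -0.35 without clone 5 HyT36 replicate 1, and neither passed. For CHAC1, a target of ATF4 and CHOP that rose in both clones, the difference was -0.96 ± 0.18 (edgeR adjusted p = 0.0060). That call was lost with limma-voom (adjusted p = 0.073). Each of these differences contains the clone 5 response, in which the epithelial markers coincide with HyT36. The covariate fit therefore cannot separate the markers from HyT36 in any of them.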

How the results depend on the processing

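No family gene reversed direction while called, under any alternative run. When each library was left out in turn, 2 to 3 of the 10 genes were called in clone 4 and 2 in clone 5. The number was 0 to 1 for the difference of responses, 3 to 5 for the average response and 4 to 5 between the clones. In those fits the share of all genes called was 2.71 to 5.59% in clone 4 and 4.97 to 10.6% in clone 5. It was 0.164 to 0.921% for the difference of responses, 11.4 to 14.5% for the average response and 49.8 to 54.9% between the clones. The count between the clones is thus near the background. The difference of responses called 0 of the 10 genes without clone 4 HyT36 replicate 1 or clone 5 HyT36 replicate 1. Of all genes, 0.244% and 0.164% were called in these fits. The average response called 5 of the 10 genes with RLE scaling, without the filter and without clone 5 HyT36 replicate 1. The share of all genes called was 15.2%, 8.95% and 12.9% in these fits. With RLE scaling and without the filter the 2 genes gained were PMAIP1 (edgeR adjusted p 0.036 and 0.042) and BCL2 (0.049 and 0.048). The cause was not tested. Same-numbered replicates of different groups did not deviate together (correlations -0.54 to 0.16, 2 of 18 over 0.1). In clone 4, same-numbered DMSO and HyT36 libraries had opposite levels of epithelial transcripts, so this check cannot decide whether the numbers pair the samples. Different-numbered libraries gave -0.31 to 0.42, with 6 of 36 over 0.1. The largest values joined clone 4 DMSO and HyT36 libraries with like levels of epithelial transcripts, which the main fit does not model. With the replicate number as a block, 3, 2, 1, 3 and 5 of the 10 genes were called in these 5 comparisons, as without it. The share of all genes called was then 4.8, 7.27, 0.289, 13.2 and 54.3%. Across member results, 972 alternatives changed no call, 11 gained one and 17 lost one. These totals include members not called in the main fit, which had no call to lose, and fits that keep every library compared. They are therefore no measure of how stable the calls are. Depth limits BAD above all, with 43 to 82 reads per library.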
